A study of Rattus norvegicus with 4 samples.

Results

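Adrenomedullin, its receptor CALCRL and the receptor activity-modifying proteins (RAMPs) form a small peptide signalling system, represented here by 5 genes, Adm, Calcrl, Ramp1, Ramp2 and Ramp3, of 32883 genes in the count table. The genes were chosen by name, with the response to phenylephrine (PE) already known: Ramp3 was picked out as one of the largest rises. Their differences between PE and control cells are therefore given as descriptions, with no p-value. Each name belonged to a single gene identifier, and all 5 genes passed the filter on low counts.

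Strand-specific libraries of total RNA, depleted of ribosomal RNA, came from neonatal rat ventricular cardiomyocytes, a primary culture used as a model of hypertrophic growth. The cells came from Sprague-Dawley rats at postnatal day 2, were pre-plated for 1 h to take away cells that attach early, and were grown in medium with 10% fetal bovine serum. The PE group, 2 libraries, received phenylephrine, an agonist of alpha-1 adrenergic receptors, at 20 µM for 24 h. The control group, 2 libraries, was untreated and shared the same strain, age, plating and serum. The protocol text names PE for every library, so the groups rest on the sample titles and the treatment label. Whether libraries 1 and 2 of a group came from separate cultures is not stated, and p-values measure the spread between these libraries, which may be technical.

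Adrenomedullin is a secreted peptide that widens blood vessels and is made by many cell types, including heart muscle cells and endothelium. CALCRL, also called the calcitonin receptor-like receptor, is a class B G protein-coupled receptor that needs a RAMP to reach the cell surface and to bind its ligand. With RAMP1 it forms the receptor of calcitonin gene-related peptide, and with RAMP2 or RAMP3 it forms the adrenomedullin receptors. These receptors mainly signal through Gs and cyclic AMP.

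Total counts were 56948370 and 48075810 in PE libraries 1 and 2, and 51917449 and 45637881 in control libraries 1 and 2. Genes of the mitochondrial genome took 4.49% and 4.62% of the counts in the PE libraries, against 6.04% and 11.2% in control libraries 1 and 2, so control library 2 stood apart in this measure. The cardiomyocyte markers (7 of 8 matched) summed to between 10457 and 11474 CPM in PE libraries and between 10731 and 11752 CPM in control libraries, where CPM is the count scaled to the TMM-adjusted library size. The 2 most abundant genes of this sum did not move alike. Tnnt2 was at 2482 and 2431 CPM in PE libraries, against 2244 and 3865 CPM in control libraries 1 and 2. Actn2 was at 3004 and 3414 CPM in PE libraries, against 2284 and 1949 CPM in control libraries 1 and 2. Markers of other cells were present too. Fibroblast markers summed to between 10019 and 10108 CPM in PE libraries, against 16401 to 18252 CPM in controls. That sum rested largely on its 2 most abundant genes, the collagen genes Col1a1 and Col3a1. Col1a1 was at 3272 and 4108 CPM in PE libraries, against 6660 and 4480 CPM in controls. Col3a1 was at 2603 and 2842 CPM in PE libraries, against 7839 and 6075 CPM in controls. Macrophage markers summed to between 229 and 256 CPM in PE libraries, against 342 to 387 CPM in controls, and mesothelial markers to between 99.7 and 110 CPM in PE libraries, against 168 to 202 CPM in controls. In bulk RNA, fewer cells of a type and less RNA per cell cannot be told apart.

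The RAMP transcripts moved apart with PE while the receptor and the peptide did not separate the groups. Ramp3 was about 53.3-fold higher in PE cells, Ramp1 2.22-fold higher and Ramp2 1.65-fold lower. Calcrl and Adm overlapped between the groups. In edgeR's quasi-likelihood test across all genes, at a Benjamini-Hochberg adjusted p under 0.05, 2 of the 5 genes were called higher, 1 lower and 2 were not called. Of the 15257 genes tested, 15.7% were called, with 7.39% higher and 8.3% lower. Both PE libraries lay above both controls for 2 of the 5 genes, against 28.5% of all genes tested, and below both for 1, against 28.1%; either way this held for 56.7% of all genes. Because the genes were chosen with this comparison in view, nothing is read from their counts.

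**Figure D1:**
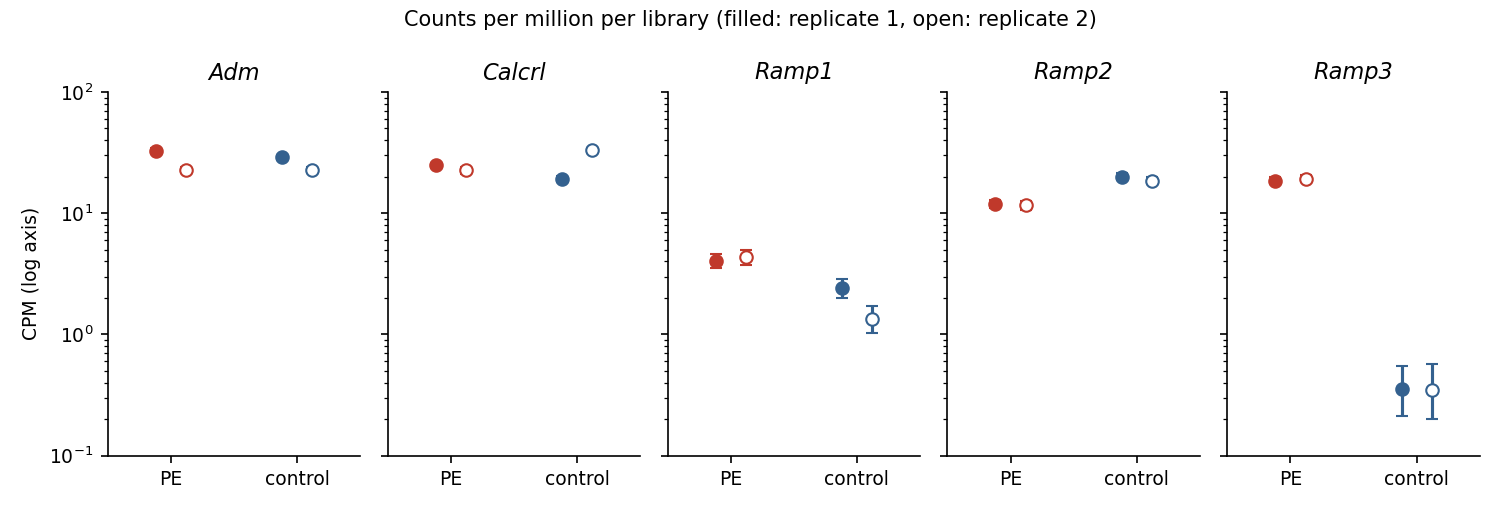
Level of each gene in each library, in CPM on a log axis, with PE to the left of control, filled points for library 1 and open points for library 2. Bars are exact Poisson 95% intervals of the counts, which cover counting error only, and heights compare libraries of the same gene and not different genes, since CPM is not corrected for gene length. Ramp3 lies at 18.6 and 19.2 CPM in PE libraries, against 0.354 and 0.351 CPM in controls.

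Ramp3 (ENSRNOG00000053766) encodes the RAMP that gives CALCRL its second adrenomedullin receptor form. It had 1044 and 908 counts in PE libraries 1 and 2, against 19 and 16 counts in control libraries 1 and 2. The exact Poisson 95% intervals of the control counts, which cover counting error only, were 11.4 to 29.7 and 9.15 to 26.0. Scaled to library size, Ramp3 averaged 18.9 ± 0.448 CPM in PE cells and 0.352 ± 0.0021 CPM in control cells (SD, n = 2 each). Both PE libraries were high and both controls were near the bottom of the measured range, with 52.5-fold the smallest and 54.8-fold the largest ratio of a PE to a control library. The log2 fold change was 5.74 ± 0.25 (SE), which ranked Ramp3 at 6 from the top among 15257 genes, and the authors' deposited table gives 5.75. It stayed between 5.72 and 5.76 when any library was left out.

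The Ramp3 promoter is shown because it belongs to the gene with the largest difference, beside those of Ramp1, the other RAMP gene that was higher, and of Calcrl, whose groups overlapped. RefSeq promoter windows on the build GRCr8 were matched for 4 of the 5 genes. Each runs in the direction of the gene over 300 bases, 250 before and 50 after the start site. They were read for short letter patterns on both strands, and the capitals mark GGGCGG, a GC box bound by Sp and Krüppel-like factors, and GGAAA, the core letters of NFAT sites, or their reverse complements.
Ramp3, chr14:85741064-85741363, plus strand: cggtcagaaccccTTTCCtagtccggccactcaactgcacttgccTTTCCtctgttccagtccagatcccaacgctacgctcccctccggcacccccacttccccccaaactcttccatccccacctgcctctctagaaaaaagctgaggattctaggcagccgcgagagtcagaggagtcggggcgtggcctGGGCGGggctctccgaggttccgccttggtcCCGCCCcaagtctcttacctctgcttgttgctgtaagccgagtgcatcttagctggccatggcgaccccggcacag
Ramp1, chr9:99212866-99213165, plus strand: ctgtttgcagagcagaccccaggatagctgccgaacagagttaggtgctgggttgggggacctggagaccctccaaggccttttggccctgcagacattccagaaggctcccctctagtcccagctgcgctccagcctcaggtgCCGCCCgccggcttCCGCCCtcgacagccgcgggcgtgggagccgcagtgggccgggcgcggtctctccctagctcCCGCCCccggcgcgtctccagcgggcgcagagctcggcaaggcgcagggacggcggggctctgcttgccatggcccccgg
Calcrl, chr3:89932567-89932866, minus strand: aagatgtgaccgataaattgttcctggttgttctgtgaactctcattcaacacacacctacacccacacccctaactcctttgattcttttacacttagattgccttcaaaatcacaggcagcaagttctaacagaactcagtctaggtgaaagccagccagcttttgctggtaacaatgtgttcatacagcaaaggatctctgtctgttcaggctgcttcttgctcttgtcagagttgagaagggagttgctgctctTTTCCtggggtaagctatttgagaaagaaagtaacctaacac

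The Ramp3 window held 2 GC boxes and 2 GGAAA matches, the Ramp1 window 3 GC boxes and 0 GGAAA matches, and the Calcrl window 0 GC boxes and 1 GGAAA match. The Adm window, not printed, held 1 GC box and 2 GGAAA matches. Across 33469 rat promoter windows of the same length, 33.1% held GGGCGG and 62.7% held GGAAA, so both patterns are common. The letters ACGTG (core of HIF sites, in 19.3% of windows), TGACGTCA (the cyclic AMP response element, 1.83%), TGANTCA (AP-1, 7.33%) and TATAAA (14.2%) had 0 matches in all 4 windows. CATTCC, the core of TEAD sites, had 1 match in the Ramp1 window and 0 in the other 3 (14.2% of all windows). These matches describe letters only, and binding was not measured.

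Ramp1 (ENSRNOG00000019926), the partner that turns CALCRL into the receptor of calcitonin gene-related peptide, was the least deeply counted of the 5 genes in the PE libraries. It had 226 and 204 counts in PE libraries 1 and 2, against 129 and 61 counts in control libraries 1 and 2. In CPM these were 4.03 and 4.32 in PE cells, against 2.403 and 1.34 in control cells. The PE libraries lay close together and above both controls, whereas the controls differed 1.80-fold from each other. The log2 fold change was 1.15 ± 0.30 (SE), and it was 1.64 without control library 1 and 0.80 without control library 2. Its size thus depended on which control library was used, and its direction did not.

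Ramp2 (ENSRNOG00000020415), the partner of the first adrenomedullin receptor and prominent in vascular and lymphatic endothelium, was the RAMP gene that was lower with PE. It had 669 and 547 counts in PE libraries 1 and 2, against 1078 and 848 counts in control libraries 1 and 2. In CPM these were 11.9 and 11.6 in PE cells, against 20.1 and 18.6 in control cells. The 2 PE libraries lay below both controls, and replicates of a group differed by at most 1.08-fold. The log2 fold change was -0.72 ± 0.18 (SE), and it lay between -0.77 and -0.66 when any library was left out. Its call in the test across all genes was lost without PE library 1 (-0.73), without PE library 2 (-0.69) and with the replicate number as a block (-0.72).

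**Figure D2:**
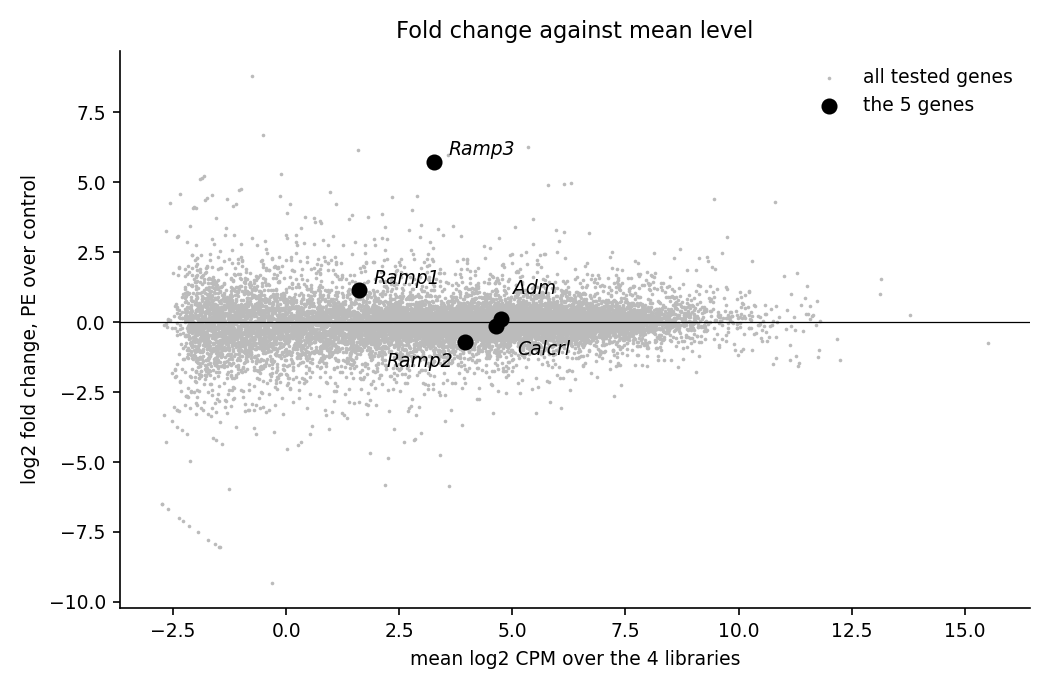
Log2 fold change, PE over control, against the mean log2 CPM over the 4 libraries for all 15257 tested genes (grey) and the 5 genes (black, labelled). Ramp3 stands at 5.74, Ramp1 at 1.15, Ramp2 at -0.72, and Adm and Calcrl lie inside the bulk of genes near 0.

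Calcrl (ENSRNOG00000054695), the receptor that all 3 RAMPs share, did not separate the groups. It had 1391 and 1064 counts in PE libraries 1 and 2, against 1025 and 1503 counts in control libraries 1 and 2. In CPM these were 24.8 and 22.5 in PE cells, against 19.1 and 33.0 in control cells, so both PE libraries lay between the controls. The log2 fold change was -0.14 ± 0.24 (SE). It was -0.47 without control library 1, where the gene was called lower, and 0.31 without control library 2, where it was not called. The high library was control library 2, which also had the largest share of mitochondrial counts. Whether that share played a part in the Calcrl value was not tested.

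Adm (ENSRNOG00000027030), the gene of the adrenomedullin precursor, also overlapped between the groups. It had 1838 and 1077 counts in PE libraries 1 and 2, against 1550 and 1032 counts in control libraries 1 and 2. In CPM these were 32.7 and 22.8 in PE cells, against 28.9 and 22.6 in control cells. The lower value of each group was nearly the same, and the replicates of each group differed by more than the group means did. Adm averaged 27.8 ± 7.02 CPM in PE cells and 25.8 ± 4.41 CPM in control cells (SD, n = 2 each), with a log2 fold change of 0.11 ± 0.22 (SE). It was -0.17 without PE library 1 and -0.05 without control library 2, against 0.35 without PE library 2 and 0.30 without control library 1. At this spread the data neither show a difference in Adm nor show that there is none.

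The reads of the 3 RAMP genes were set against each other within each library, where sequencing depth cancels. These are shares of reads and not of transcripts, because no transcript lengths were used, so a share is compared between libraries and not between genes. Ramp3 took 53.8% (Wilson 95% interval 51.6 to 56.1) and 54.7% (52.3 to 57.1) of RAMP reads in PE libraries 1 and 2, against 1.55% (0.994 to 2.41) and 1.73% (1.07 to 2.79) in control libraries 1 and 2. Ramp2 took 34.5% and 33.0% in PE cells, against 87.9% and 91.7% in control cells. Ramp1 took 11.7% and 12.3% in PE cells, against 10.5% and 6.59% in control cells. Both PE libraries showed nearly the same split. The Ramp3 share was 52.6 percentage points above that of the controls, and the Ramp2 share 56.1 points below (-56.1 as PE minus control). Because the 3 shares add up to all RAMP reads, more Ramp3 reads lower the other shares. The Ramp2 level itself was 1.65-fold lower in PE cells. Differences in points also depend on gene lengths, which were not used.

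**Figure D3:**
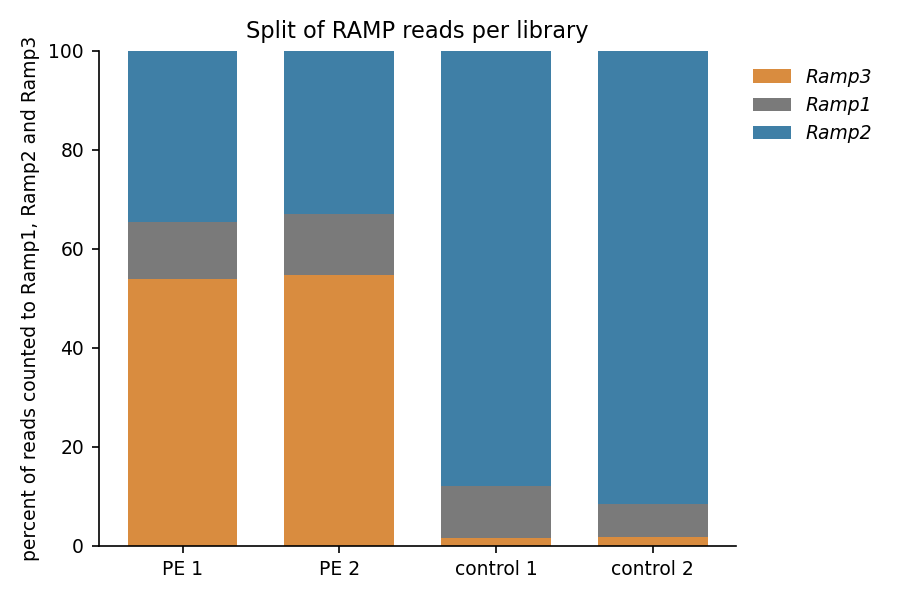
Percent of the reads of Ramp1, Ramp2 and Ramp3 that fell to each gene, per library, with PE libraries to the left of controls. Bars add up to all RAMP reads of a library, and the Ramp3 part is 53.8% and 54.7% in PE libraries, against 1.55% and 1.73% in controls.

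Expressed as a ratio, there were 1.56 and 1.66 Ramp3 reads per Ramp2 read in PE libraries 1 and 2, against 0.0176 and 0.0189 in control libraries 1 and 2, a difference of 88.2-fold between the group means. Gene length cancels in this fold. Per Calcrl read, there were 0.751 and 0.853 Ramp3 reads in PE cells, against 0.0185 and 0.0106 in control cells. All RAMP reads together came to 1.39 and 1.56 per Calcrl read in PE cells, against 1.20 and 0.615 in control cells. The PE libraries were higher than both controls in this last ratio, but control library 1 was nearer to them than to control library 2. The summed RAMP level was 34.5 and 35.1 CPM in PE cells, against 22.8 and 20.3 CPM in control cells.

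Other genes of the peptide system were read from lists of related genes, with the test across all genes. Among the other ligands, only Adm2 passed the count filter of the 4 listed, and it was not called (1.44 and 1.65 CPM in PE cells, against 1.19 and 0.856 CPM in control cells; log2 fold change 0.59 ± 0.33, adjusted p = 0.286 in edgeR). Adm2 encodes intermedin, which uses the same receptors. Calcb and Iapp, the genes of beta-CGRP and amylin, had 0 counts in all 4 libraries, and Calca had reads in PE library 2 only, at 0.148 CPM. The calcitonin receptor gene Calcr, whose product also pairs with RAMPs, likewise had 0 counts in all 4 libraries. Calcb, Iapp and Calcr were picked for mention after their values were seen.

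Of 4 genes listed as other receptors or receptor partners of this peptide family, 3 were tested and 0 were called. Their median log2 fold change was -0.25, against -0.01 over all genes tested. The calcitonin receptor gene Calcr was the gene not tested, so these values do not cover it. Ackr3, a scavenger receptor that removes adrenomedullin in mice, was at 28.9 and 23.9 CPM in PE cells, against 37.1 and 34.0 CPM in control cells (-0.43 ± 0.18, adjusted p = 0.135). It passed without control library 2 (-0.49, adjusted p = 0.0117). Crcp, a protein that helps CALCRL couple to its G protein, was at -0.25 ± 0.24 (adjusted p = 0.551), and at -0.51 without control library 1 (adjusted p = 0.0251) and 0.08 without control library 2. Fits without a control library take their spread from the PE pair alone.

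Of 8 genes of peptide processing and clearance, 1 fell, 0 rose and 7 did not pass (median -0.15). Pcsk5, a proprotein convertase, fell by 0.72 ± 0.16 on the log2 scale, with 35.3 and 32.6 CPM in PE cells, against 56.2 and 55.7 CPM in control cells (adjusted p = 0.0124). It did not pass without PE library 1 (-0.78, adjusted p = 0.218) or PE library 2 (-0.66, adjusted p = 0.337), nor with the replicate block (adjusted p = 0.0619). Pam, picked for mention after its values were seen, encodes the enzyme that amidates adrenomedullin and so completes the active peptide. It had 1979 and 1898 CPM in PE cells, against 1410 and 1409 CPM in control cells, and did not pass in edgeR (0.46 ± 0.17, adjusted p = 0.0956) but did in DESeq2 (adjusted p = 0.0404). Without control library 1 (0.47, adjusted p = 0.00208) or control library 2 (0.46, adjusted p = 0.00238) it passed in edgeR as well. The list had 2 higher and 3 lower without control library 1, 1 and 1 without control library 2, and 0 called without either PE library.

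Of 9 genes for receptor desensitization and RAMP trafficking, 0 were called in edgeR (median -0.11), and the count was 0 in DESeq2 as well. At an unadjusted p under 0.05 there were 2, Grk5 and the arrestin gene Arrb2, which was named after its values were seen (-0.52 ± 0.19, adjusted p = 0.0955). Grk5, a receptor kinase abundant in heart, was at 122 and 119 CPM in PE cells, against 90.7 and 87.4 CPM in control cells (0.44 ± 0.15, adjusted p = 0.0871). It passed without control library 1 (0.47, adjusted p = 0.0109) and without control library 2 (0.41, adjusted p = 0.0258). Grk2, the kinase best known for switching off beta adrenergic receptors, was at 0.21 ± 0.22 (adjusted p = 0.586), at 0.59 without control library 1 (adjusted p = 0.00195) and at -0.09 without control library 2. The list had 3 higher and 1 lower without control library 1, and 1 higher and 1 lower without control library 2.

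RAMPs have also been reported to pair with other receptors, most of them of class B. Of 10 such receptor genes listed, 5 were tested, and of these 3 fell, 0 rose and 2 did not pass (median -0.99). Sctr, the secretin receptor, fell to 0.214 and 0.169 CPM in PE cells, against 1.25 and 0.987 CPM in control cells (-2.52 ± 0.47, adjusted p = 0.00483). Vipr2, a receptor of vasoactive intestinal peptide, was at 0.623 and 1.29 CPM in PE cells, against 2.37 and 2.52 CPM in control cells (-1.36 ± 0.37, adjusted p = 0.0303), and did not pass without PE library 1 (-0.91, adjusted p = 0.271). Gcgr, the glucagon receptor, was at 2.42 and 1.57 CPM in PE cells, against 4.15 and 3.79 CPM in control cells (-0.99 ± 0.27, adjusted p = 0.0348), and did not pass without PE library 2 (-0.71, adjusted p = 0.342). All 3 were low in these cells.

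Downstream of the receptor, 3 of 21 genes of the Gs and cyclic AMP arm rose, 2 fell and 16 did not pass (median 0.10). Adcy5, a main adenylyl cyclase of cardiomyocytes, fell to 105 and 121 CPM in PE cells, against 322 and 194 CPM in control cells (-1.19 ± 0.23, adjusted p = 0.00613). Adcy7, another adenylyl cyclase, rose by 1.11 ± 0.19 (adjusted p = 0.00345), with 18.8 and 19.9 CPM in PE cells, against 9.93 and 7.92 CPM in control cells. Rapgef4, which encodes the cyclic AMP sensor EPAC2, rose by 1.35 ± 0.21 (adjusted p = 0.002), with 7.52 and 8.17 CPM in PE cells, against 2.85 and 3.29 CPM in control cells.

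Of the 5 listed phosphodiesterase genes, whose products break down cyclic AMP, 1 fell, 1 rose and 3 did not pass. Pde4a fell by 0.79 ± 0.21 on the log2 scale (adjusted p = 0.0326) and Pde4b, picked for mention after its values were seen, rose by 0.65 ± 0.16 (adjusted p = 0.0226). Neither passed without PE library 1 (-0.68 and 0.55, adjusted p = 0.324 and 0.475), without PE library 2 (-0.89 and 0.76, adjusted p = 0.114 and 0.18) or with the replicate block (adjusted p = 0.0508 and 0.104). Without control library 2, the list had 5 higher and 6 lower, and without control library 1 it had 5 higher and 2 lower. It had 2 higher and 1 lower without either PE library.

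Adm is a known target of hypoxia-inducible factors, so genes of that response were set beside it. Of 16 tested, 6 rose, 0 fell and 10 did not pass (median 0.57), while Adm itself overlapped between the groups. The glycolytic genes Pgk1 and Ldha rose by 1.14 ± 0.16 and 1.06 ± 0.18 (adjusted p = 0.000941 and 0.00247). Bnip3, a mitophagy receptor, rose by 1.00 ± 0.17 (adjusted p = 0.00266), and P4ha1, a collagen prolyl hydroxylase, rose by 0.90 ± 0.16 (adjusted p = 0.00414). Vegfa, another target of these factors picked for mention after its values were seen, was at 492 and 490 CPM in PE cells, against 430 and 578 CPM in control cells, and was not called (-0.04 ± 0.18, adjusted p = 0.925). The median of the list was 0.59 and 0.45 without PE libraries 1 and 2, and 0.64 and 0.49 without control libraries 1 and 2. Fewer of its genes passed without either PE library, and more without either control library. That none fell did not hold without control library 2. Bnip3 did not pass without PE library 1 (0.91, adjusted p = 0.0771), nor P4ha1 without PE library 1 (0.85, adjusted p = 0.117) or PE library 2 (0.95, adjusted p = 0.0561).

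**Figure D4:**
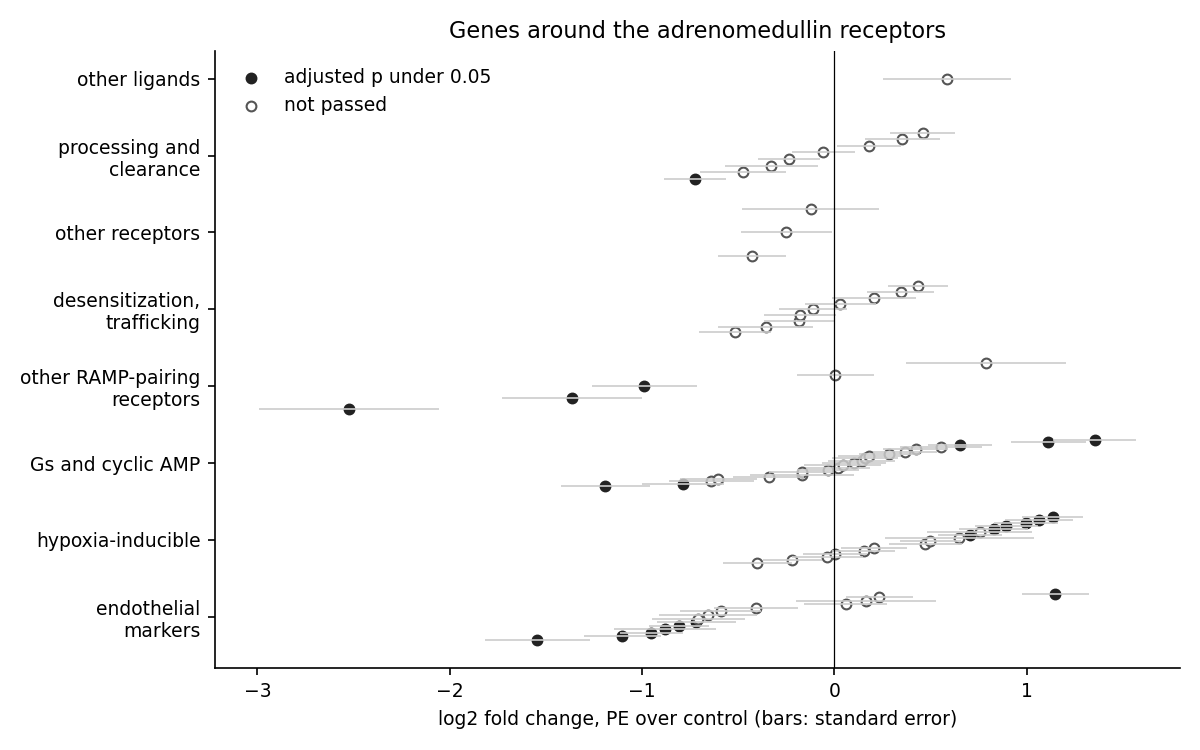
Log2 fold change, PE over control, with its standard error for each tested gene of 7 pathway lists and the endothelial markers, filled where the adjusted p was under 0.05 in edgeR. Of the pathway genes, 9 rose and 6 fell, with 6 of the 9 in the hypoxia-inducible list.

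Because Ramp2 and Calcrl are strongly expressed in endothelium, endothelial markers were read in the same libraries. Of 16 listed markers, 15 matched and 14 were tested, and of these 6 fell, 1 rose and 7 did not pass. Their median log2 fold change was -0.68, with 4 of the 14 above 0, beside -0.72 for Ramp2. Other marker lists had medians not far from it, at -0.63 for fibroblast, -0.63 for macrophage and -0.58 for mesothelial markers. Schwann cell and neuron markers were at -0.56, lymphatic endothelial at -0.55, smooth muscle and pericyte at -0.35 and cardiomyocyte at -0.26. The endothelial markers summed to 186 and 195 CPM in PE cells, against 274 and 265 CPM in control cells. Kdr, a receptor of VEGF, was at 69.7 and 69.7 CPM in PE cells, against 123 and 121 CPM in control cells (-0.81 ± 0.16, adjusted p = 0.00587), and Cdh5, the endothelial cadherin, was at 24.5 and 25.9 CPM in PE cells, against 46.7 and 50.8 CPM in control cells (-0.95 ± 0.16, adjusted p = 0.00315). Robo4 and Flt1 were named after their values were seen. Robo4 was near 0 in every library, at 0.0219 to 0.0635 CPM. Flt1, the marker that rose, was at 32.5 and 35.3 CPM in PE cells, against 15.9 and 14.6 CPM in control cells.

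Per 100 CPM of the endothelial markers, Ramp2 came to 6.41 and 5.93 CPM in PE cells, against 7.33 and 7.01 CPM in control cells. Calcrl came to 13.3 and 11.5 CPM in PE cells, against 6.97 and 12.4 CPM in control cells, and Ramp3 to 10.0 and 9.84 CPM in PE cells, against 0.129 and 0.132 CPM in control cells. These ratios depend on which markers are summed. The sum includes Flt1, which rose, and this makes the ratios in PE cells smaller. Ratios without Flt1 were not computed, so the small Ramp2 difference is not read as a fall relative to endothelial markers. A lower marker sum in both PE libraries was not particular to endothelium, since the fibroblast, macrophage and mesothelial sums were lower too. The fibroblast sum rested largely on Col1a1 and Col3a1, and 3 of the 8 tested fibroblast markers had a log2 fold change above 0. The part of the endothelial share in the Ramp2 difference was not tested, and the RNA of Ramp2, Calcrl and Ramp3 was not assigned to a cell type. The count of markers that fell was 2 without PE library 1 and 2 without PE library 2, where Kdr (-0.80 both times, adjusted p = 0.198 and 0.191) and Cdh5 (-0.91 and -0.99, adjusted p = 0.108 and 0.0648) did not pass.

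**Figure D5:**
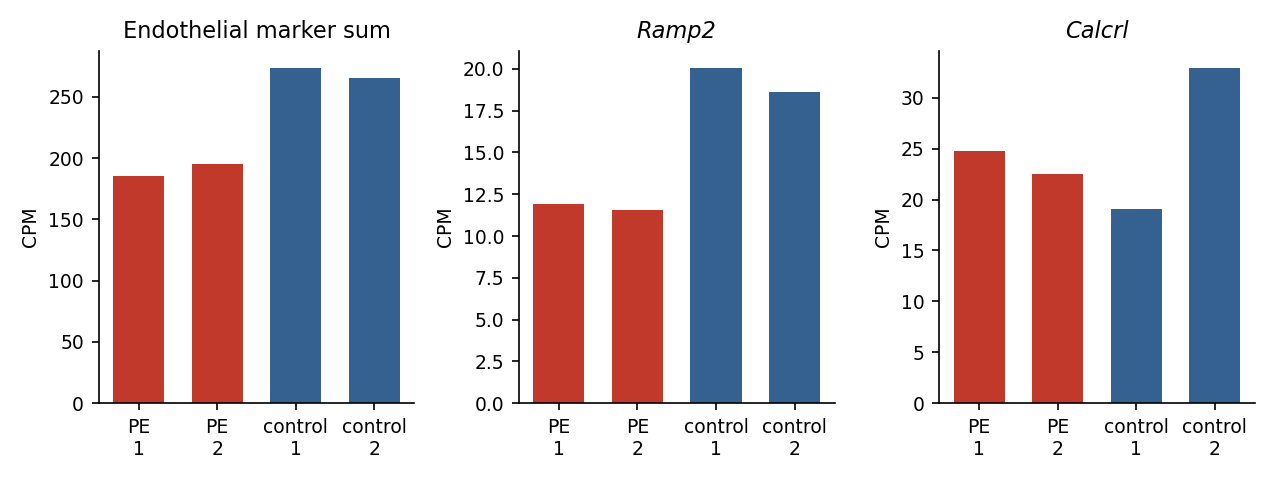
Summed level of 15 endothelial markers and levels of Ramp2 and Calcrl per library, in CPM on axes that start at 0, with PE libraries (red) to the left of controls (blue). The marker sum and Ramp2 are lower in both PE libraries, while the Calcrl values of PE libraries, 24.8 and 22.5 CPM, lie between those of the controls.

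Markers of other cells moved as follows. Of lymphatic endothelial markers, 1 of 5 rose and 2 fell, and their sum of 310 to 315 CPM in PE cells overlapped the 297 to 314 CPM of control cells. That sum joins opposite moves of its 2 most abundant genes. Flt4 was at 127 and 137 CPM in PE cells, against 37.9 and 33.6 CPM in control cells. Prox1 was at 97.2 and 104 CPM in PE cells, against 199 and 198 CPM in control cells. Smooth muscle and pericyte markers had 2 of 9 higher and 1 lower, with sums of 1315 to 1574 CPM in PE cells and 1130 to 1653 CPM in control cells. Fibroblast markers had 3 of 8 lower and 0 higher, macrophage markers 3 of 9 lower and 0 higher, mesothelial markers 3 of 6 lower and 1 higher, and cardiomyocyte markers 1 of 7 higher and 0 lower. Of the Schwann cell and neuron markers 2 were tested and 0 called. Macrophage markers had 0 called without either PE library, and 7 and 5 lower without control libraries 1 and 2. Without PE libraries 1 and 2, the markers that fell numbered 1 and 0 on the lymphatic list, 1 and 2 on the mesothelial and 0 and 1 on the smooth muscle list, and 0 cardiomyocyte and 0 mesothelial markers rose. Lymphatic markers had 1 higher and 3 lower without control library 1, and 2 higher and 2 lower without control library 2. Without control library 2, 2 fibroblast markers rose and 5 fell, and leaving out either control gave 2 cardiomyocyte markers higher and 2 lower, and 3 smooth muscle markers lower.

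The genes whose profile over the 4 libraries lay nearest to that of a member were taken from 11114 genes with a symbol whose log2 CPM averaged 1 or more, by the Euclidean distance of log2 CPM centred on each gene's mean. Nearest to Ramp3 were Ckmt1, a mitochondrial creatine kinase (distance 0.519), the calponin gene Cnn1 (0.658) and the skeletal calsequestrin gene Casq1 (0.714). Ckmt1 was at 24.7 and 22.3 CPM in PE cells, against 0.447 and 0.285 CPM in control cells. Cnn1 is also on the smooth muscle list, and was at 141 and 162 CPM in PE cells, against 5.20 and 4.43 CPM in control cells. Nearest to Calcrl were Sltm (0.026), U2surp (0.0323) and Slk (0.0516), which share its high value in control library 2. Sltm, for example, was at 65.8 and 60.2 CPM in PE cells, against 49.8 and 87.2 CPM in control cells. Nearest to Adm were Taco1 (0.084), Mtfmt (0.115) and Hipk4 (0.117), which like Adm were higher in library 1 of each group. With 4 libraries a near profile is a description only.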

How the data were processed

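The deposited table of counts holds raw reads per gene for the 2 PE and 2 control libraries. Per the submitters' processing notes, the tools were cutadapt 2.0, STAR 2.4.2a and featureCounts 1.6.4, on Rnor_6.0. For the strand setting and the annotation release, the answer is: not given in the sources used here. In RefSeq's GRCr8 annotation, 0 of the 5 genes overlap another gene. The authors' second deposited table gives, per the file headers, a mean normalized signal, a log2 fold change with its standard error and test score, and p-values per gene; gene names came from it, and a DESeq2 run on the counts gave its log2 fold changes to within 2.35e-09.

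The groups were compared with edgeR 4.0.16 (limma 3.58.1, R 4.3.3): TMM factors, the default filter (minimum count 10, minimum total 15), the quasi-likelihood F test and Benjamini-Hochberg adjustment over 15257 genes. The SE is the log2 fold change divided by the square root of F. CPM uses TMM-adjusted library sizes, and its precision is limited by 2 libraries a group. Intervals cover counting error only. DESeq2 1.42.0, other scalings, no filter, each library left out and a replicate block were tried.

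The 5 genes and all lists were chosen with earlier results of these data known. Named from each pathway list were up to 4 called genes with the largest change, or the 2 most abundant where none was called; and the 2 most abundant endothelial markers. The rule asked for the same from the other marker lists. These are given as counts and sums instead, except that the 2 most abundant markers of the cardiomyocyte, fibroblast and lymphatic endothelial lists are named. Genes named outside the rule are marked in the text. Nearest profiles were limited to 3 for each of Ramp3, Calcrl and Adm. A split of RAMP reads per length had been planned, but no transcript lengths were used here, so it is given in reads. Promoter sequences are RefSeq's, on GRCr8, a different build from that of the counts.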

Additional observations from a re-analysis of the deposited data

How the results depend on the processing

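With each library left out in turn, the genes called higher ranged from 604 to 2398 and lower from 601 to 2389, around 1127 and 1266 with all libraries. Pathway genes called higher ranged from 4 to 19 and lower from 3 to 13, around 9 and 6. Endothelial markers called lower ranged from 2 to 9, around 6, and members called lower from 0 to 2, around 1. The low ends came without a PE library and the high ends without a control library, where the spread comes from the PE pair alone. With library sizes alone the Ramp3 log2 fold change was 5.69. The other scalings, DESeq2, no filter and leaving out mitochondrial genes kept the sign of all 5 log2 fold changes. The replicate numbers were not taken as pairs, since the labels say nothing of a shared culture and the deviations of same-numbered libraries correlated at -0.229 across genes. With the replicate block, 913 genes were higher and 1051 lower, 7 and 4 among pathway genes, and 0 members were called lower. A crossed pairing, added after seeing the data, gave 2270 and 2407 genes, and 18 and 12 among pathway genes; why it gave more was not tested. A share of RAMP reads by coding length was not run, since no lengths were used. Depth limits Ramp3 in the controls, where it rests on 19 and 16 counts, and 2 libraries a group limit every value.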
